A study of Homo sapiens with 5 samples.

Results

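CGI-1746 and LU-102 were set directly against each other in MDA-MB-231 cells, without passing through the mock library that each was paired with in the authors' deposited table. The comparison used 2 of the 5 libraries of the series, 1 treated with CGI-1746 and 1 treated with LU-102. Genes entered where the deposited level was at least 1 in either library, which 4194 of the 4202 genes in the table met. The ratio of a gene was log2((level with CGI-1746 + 1)/(level with LU-102 + 1)), so a positive value means a higher level with CGI-1746. The rule excluded 8 genes. NUDT19, with a level of 0.989 with CGI-1746 and 0.946 with LU-102, lay just outside, and PGPEP1, with 1.01 and 0.999, just inside.

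MDA-MB-231 is an established triple-negative, mesenchymal-like breast cancer cell line. Per the labels, all cells were treated for 4 h with CGI-1746, which the labels call a BTK inhibitor, with LU-102, in the combination together, with bortezomib, or with mock, and total RNA was sequenced as 150 bp read pairs. Bortezomib served, per the design text, as a control for what proteasome inhibition changes. The sources used here give no dose, vehicle or number of cultures. There was 1 library for each condition, so no difference below has a replicate check, no test across genes was run, and genes are described by their levels and by counts past a stated fold.

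BTK is a cytoplasmic tyrosine kinase best known for signalling downstream of the B cell receptor. LU-102 belongs to the proteasome inhibitors and acts on the trypsin-like sites of the proteasome, while bortezomib acts mainly on its chymotrypsin-like sites. When proteasomes are inhibited, unfolded and undegraded proteins accumulate, and cells typically induce cytosolic chaperones through the transcription factor HSF1, proteasome subunit genes through NFE2L1, and oxidative and endoplasmic reticulum stress genes through NRF2 and ATF4.

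The 2 libraries were alike in depth and in the number of genes seen. The levels behaved as read numbers per unit of gene length, scaled for each library. Taken as RPKM, a scale that nothing in the sources states, they correspond to about 17000000 reads with CGI-1746 and 17100000 with LU-102. Genes at a level of at least 1 numbered 4170 with CGI-1746 and 4171 with LU-102, and protein-coding genes summed to 37626 with CGI-1746 and 37351 with LU-102. The abundant RNAs RN7SL1, RN7SL2, RPPH1, RMRP and RN7SK made up 56.7% of the summed levels with CGI-1746 and 65.9% with LU-102. Levels are per unit of length, so these shares weight short RNAs far above their share of reads. Of 19 mesenchymal markers 16 were in the table, among them VIM at 82.1 with CGI-1746 and 82.3 with LU-102. Of 15 luminal epithelial markers 5 were in the table. Among these 5, KRT18 was at 35.7 with CGI-1746 and 33.9 with LU-102, and CLDN4 at 18.5 with CGI-1746 and 20.0 with LU-102. Of 11 B cell markers, BTK among them, 0 were in the table. The lowest sum of the 5 levels of any gene in the table was 5.04, so genes low in all libraries may have been left out. Absence from the table is therefore not absence of expression, and the gene counts of 4170 and 4171 carry the same limit. The bortezomib library stood apart, with a protein-coding sum of 12839, so its levels below are given as context only. Levels are relative within a library, so fewer cells and less RNA per cell cannot be told apart.

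Most genes compared had close levels in the 2 libraries. The median log2 ratio over all genes was 0.04, and it was above 0 in 2655 of 4194 genes (63.3%). At 2-fold, 3 genes were higher with CGI-1746 (0.0715% of the genes compared) and 1 was lower (0.0238%). All 4 of these are non-coding RNAs that rest on few reads, SCARNA1, BCYRN1 and SNORA79B on the high side and SNORA71C on the low side. At 1.5-fold, 16 genes were higher with CGI-1746 (0.381%) and 18 were lower (0.429%). Of the 16 higher genes 9 are protein-coding, namely TXNIP, IFIT2, HSPA1B, HSPA1A, HMOX1, DDIT4, DUSP5, KLF10 and BBS10. Of the 18 lower genes 2 are protein-coding, namely CYP1B1 and KTI12, and 15 are short non-coding RNAs. BBS10 and KTI12 were named after their values were seen. A smaller cutoff on the log2 ratio, 0.322 in size, was passed by 72 genes on the high side (1.72%) and 74 on the low side (1.76%), and is written below as past 0.322.

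**Figure D1:**
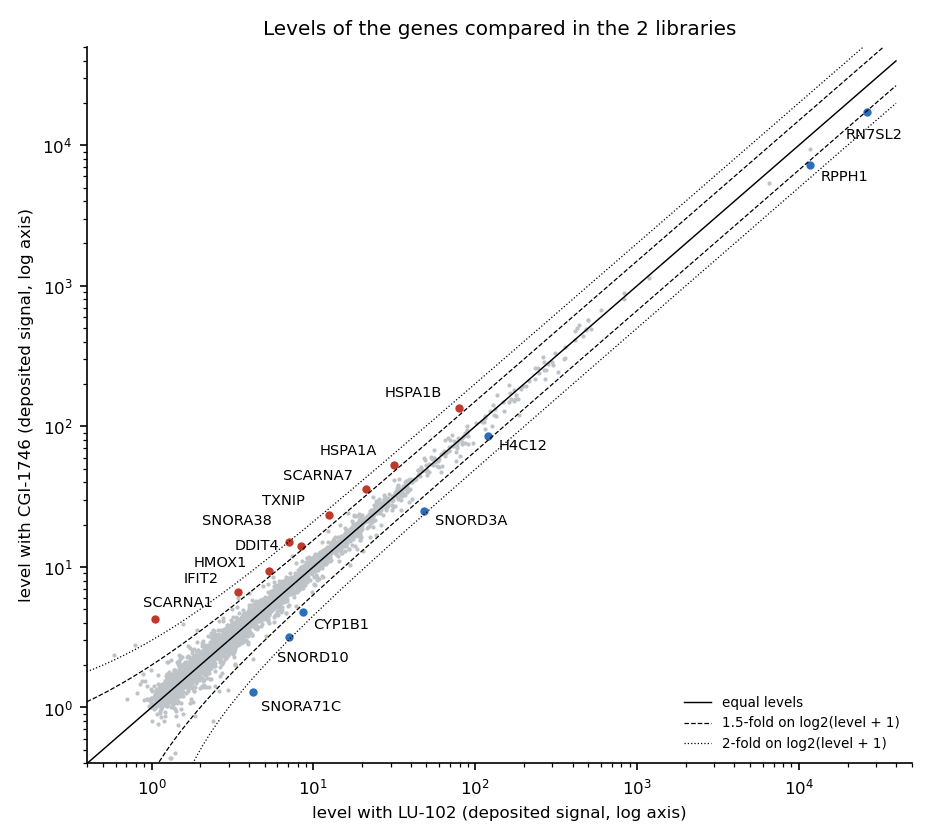
Deposited level of each of the 4194 genes with CGI-1746 (vertical axis) and with LU-102 (horizontal axis), both on log axes, 1 library each. Nearly all genes lie between the dashed 1.5-fold lines; labelled genes lie near or beyond them, the heat shock genes HSPA1A and HSPA1B above the diagonal and RPPH1, RN7SL2, SNORD3A and CYP1B1 below it.

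GC content moved with the ratio across genes, so values adjusted for it are given beside the main groups. Over 3951 protein-coding genes Spearman's rho between GC content and the ratio was -0.48, as a description across genes that share the same 2 libraries. The median ratio was 0.10 in the fifth of protein-coding genes lowest in GC, from 32.5% to 43.4%, and -0.04 in the fifth highest in GC, from 59.8% to 74.0%. Adjusted ratios below come from a robust regression of the ratio on GC content, transcript length and level. The adjustment left 18 genes past 1.5-fold higher, 14 of them shared with the 16 above, and 8 past 1.5-fold lower, all of them among the 18 above.

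Heat shock genes were higher with CGI-1746 as a group. This list holds chaperones and their partners, most of them targets of HSF1, and 33 of its 43 genes were compared. The median ratio was 0.16 against 0.04 for all genes, 28 of the 33 lay above the all-gene median (50.0% of genes do by definition), 5 were past 0.322 on the high side and none on the low side. Without HSPA1A, HSPA1B and HSPA6 the median of the remaining 30 was 0.15 and 25 lay above the all-gene median. With the adjustment for GC content, length and level the median of the 33 was 0.13.

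The inducible HSP70 genes led the list. HSPA1B (chr6:31827738-31830254, GRCh38.p14), which encodes an inducible cytosolic HSP70, had a level of 136 with CGI-1746, 79.7 with LU-102, 284 in the combination, 99.5 with bortezomib and 62.2 in mock. Its level with CGI-1746 was 1.70 times that with LU-102 (95% counting interval 1.63 to 1.78), a log2 ratio of 0.76. Among the single agents LU-102 was the one nearer to mock, and the combination was the highest of the 5 libraries. HSPA1A (chr6:31815543-31817942), its near-identical neighbour, had 52.7 with CGI-1746, 31.6 with LU-102, 107 in the combination, 38.0 with bortezomib and 24.0 in mock, a log2 ratio of 0.72. Transcripts of these genes are 95% identical over 2401 aligned bases, so how their reads were divided is uncertain and they are not independent of each other. Intervals for mRNAs use read numbers worked back from the level and an annotated transcript length, so they are rough, and all intervals cover counting error only.

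Other heat shock genes followed at smaller ratios. HSPA6, a strictly inducible HSP70, had 2.92 with CGI-1746, 1.91 with LU-102, 6.30 in the combination, 4.44 with bortezomib and 1.43 in mock, with a log2 ratio of 0.43. DNAJB1, an HSP40 that works with HSP70, had 15.1 with CGI-1746, 11.4 with LU-102, 23.7 in the combination, 4.56 with bortezomib and 10.7 in mock, with a log2 ratio of 0.38. HSP90AA1, the inducible HSP90, had 31.5 with CGI-1746, 23.3 with LU-102, 37.9 in the combination, 9.33 with bortezomib and 26.7 in mock, with a log2 ratio of 0.42. HSP90AA1 therefore lay below mock with LU-102 and above it with CGI-1746, while HSPA6 and DNAJB1 lay above mock in both single-agent libraries. The constitutive members differed less, with log2 ratios of 0.21 for HSPA8, 0.15 for HSP90AB1 and 0.21 for HSPD1. Small heat shock protein HSPB1, at 35.6 with CGI-1746 and 39.6 with LU-102, went the other way at -0.15, and the transcript of HSF1 itself was at 1.84 with CGI-1746 and 1.99 with LU-102.

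Sequences before the starts of 4 of these genes are printed because these genes are among the highest of the heat shock list, and HSF1 binds inverted repeats of a short unit. The windows are the 250 bases before the RefSeq start on GRCh38.p14, 5′ to 3′ on the strand of the gene. The letters searched were GAANNTTC and TTCNNGAA, each its own reverse complement, and matches are in capitals. Overlapping matches merge into a longer run in capitals.
HSPA1A, chr6:31815293-31815542, plus strand: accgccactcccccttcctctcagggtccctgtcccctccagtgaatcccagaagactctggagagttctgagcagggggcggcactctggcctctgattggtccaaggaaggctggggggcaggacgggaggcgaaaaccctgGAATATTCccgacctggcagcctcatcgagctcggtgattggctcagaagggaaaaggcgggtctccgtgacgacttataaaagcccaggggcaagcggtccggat
HSPA1B, chr6:31827488-31827737, plus strand: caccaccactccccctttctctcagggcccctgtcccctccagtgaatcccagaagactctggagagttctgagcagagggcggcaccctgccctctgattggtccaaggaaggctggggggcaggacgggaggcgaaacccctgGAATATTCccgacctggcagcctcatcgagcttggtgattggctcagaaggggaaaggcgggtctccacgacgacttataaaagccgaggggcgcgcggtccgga
HSPA6, chr1:161524290-161524539, plus strand: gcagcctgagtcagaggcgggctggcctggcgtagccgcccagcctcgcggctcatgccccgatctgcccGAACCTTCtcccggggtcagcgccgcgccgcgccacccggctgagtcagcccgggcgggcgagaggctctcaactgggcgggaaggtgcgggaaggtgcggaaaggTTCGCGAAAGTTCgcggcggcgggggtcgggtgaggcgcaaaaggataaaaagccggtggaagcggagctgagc
DNAJB1, chr19:14518398-14518647, minus strand: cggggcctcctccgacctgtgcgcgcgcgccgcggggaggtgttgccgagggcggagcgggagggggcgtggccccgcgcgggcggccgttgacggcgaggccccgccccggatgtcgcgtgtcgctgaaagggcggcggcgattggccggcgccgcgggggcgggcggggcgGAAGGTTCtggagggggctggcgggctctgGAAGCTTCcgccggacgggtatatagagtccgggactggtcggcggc

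HSPA1A and HSPA1B share the same 8 capital letters, beginning 106 bases before the start of HSPA1A and 105 before that of HSPA1B. HSPA6 holds 3 matches, 2 of them overlapping in a run of 3 units that begins 74 bases before the start, and DNAJB1 holds 2 in 1 of its 3 listed windows. Of 29 heat shock genes with a listed window, 15 (51.7%) held the motif in at least 1, against 14% of 27305 genes and 11.6% of 35116 windows. The longer runs GAANNTTCNNGAA or TTCNNGAANNTTC, which contain the shorter motif, were held by 8 of the 29 (27.6%), against 0.557% of genes. Most genes of the list were placed there as HSF1 targets, so the excess follows from how the list was made and does not bear on the ratio. A match is a description of these letters and not a binding site. HSPB1, whose ratio was below 0, holds the shorter motif too.

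**Figure D2:**
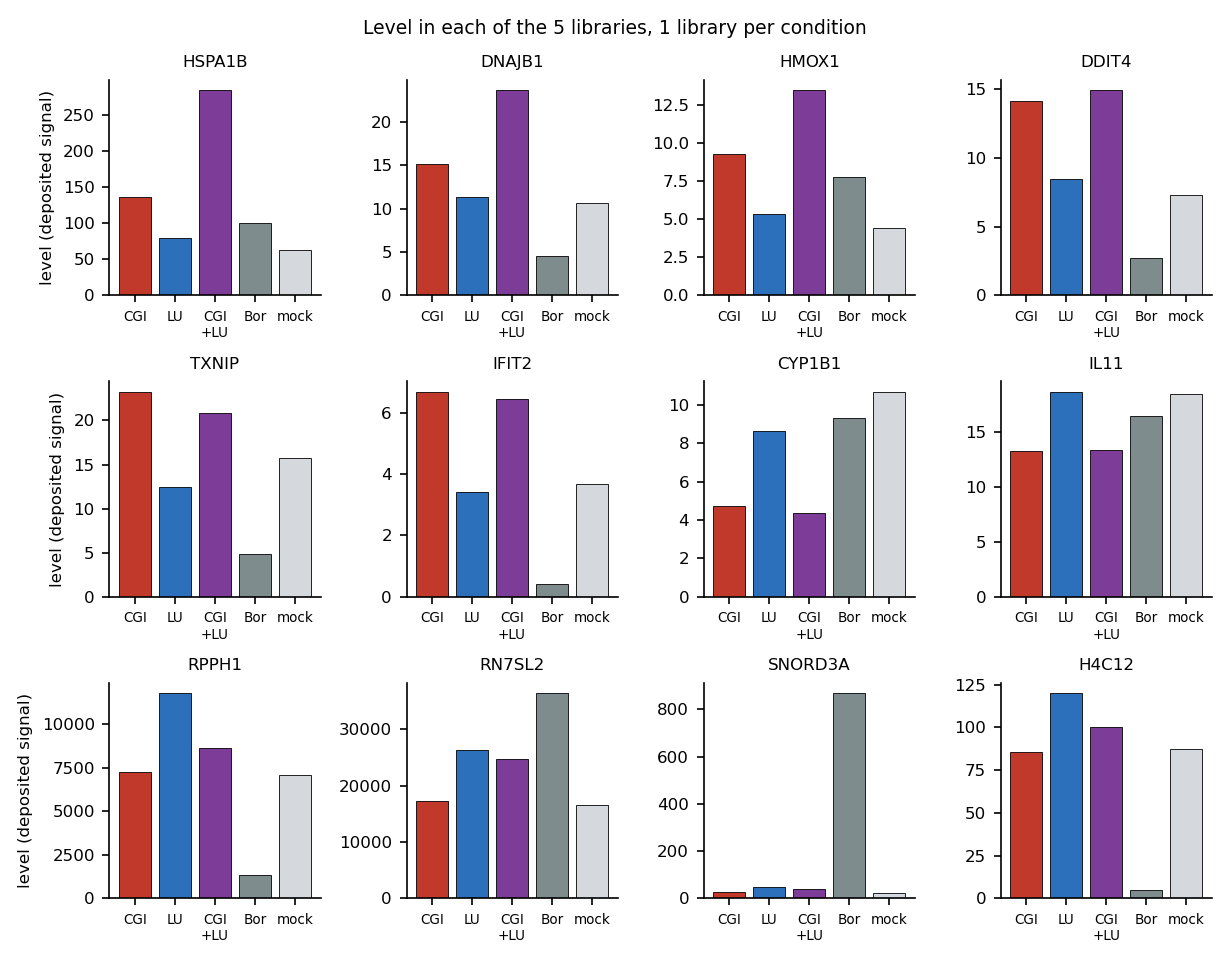
Level of 12 genes in each of the 5 libraries (vertical axes from 0, deposited signal; CGI = CGI-1746, LU = LU-102, CGI+LU = the combination, Bor = bortezomib), 1 bar per library with no replicate error. HSPA1B, DNAJB1, HMOX1, DDIT4, TXNIP and IFIT2 are higher with CGI-1746 than with LU-102, and CYP1B1, IL11, RPPH1, RN7SL2, SNORD3A and H4C12 are lower.

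Chaperones of the endoplasmic reticulum were also higher with CGI-1746, by small amounts. Of 22 genes on the list 20 were compared, and 19 had a ratio above 0, against 63.3% of all genes. The exception was SYVN1, a ubiquitin ligase that the list also holds. Of the 20, 18 lay above the all-gene median. The median ratio of the 20 was 0.17, or 0.16 with the adjustment, and only DNAJB9 passed 0.322. DNAJB9, a co-chaperone of the HSP70 of the endoplasmic reticulum, had 4.15 with CGI-1746, 2.78 with LU-102, 4.56 in the combination, 1.29 with bortezomib and 3.05 in mock, a log2 ratio of 0.45. HSPA5, the HSP70 of the endoplasmic reticulum, had 168 with CGI-1746, 137 with LU-102, 172 in the combination, 45.5 with bortezomib and 167 in mock. Of the single agents, CGI-1746 was close to mock for HSPA5 and LU-102 lay below it, and HSP90B1 likewise was low with LU-102, with 29.4 with CGI-1746, 24.4 with LU-102 and 29.2 in mock.

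Targets of ATF4 and CHOP, the transcription factors of the integrated stress response, had a median ratio of 0.19 over 18 of the 29 genes on the list. Of these 13 lay above the all-gene median, 3 were past 0.322 on the high side and none on the low side. The 3 were DDIT4, GADD45A and DDIT3. DDIT4, an inhibitor of mTORC1, had 14.1 with CGI-1746, 8.42 with LU-102, 14.9 in the combination, 2.70 with bortezomib and 7.28 in mock. Its level with CGI-1746 was 1.68 times that with LU-102 (95% counting interval 1.44 to 1.97), and the combination and CGI-1746 stood together above LU-102 and mock. GADD45A, a growth arrest and stress gene, had 7.55 with CGI-1746, 5.21 with LU-102 and 7.05 in mock. DDIT3, which encodes CHOP, had 4.42 with CGI-1746, 3.17 with LU-102 and 3.31 in mock, and its interval held 1 (0.963 to 2.05). Amino acid transporter gene SLC7A5 and the factor ATF5 lay below 0, both at -0.26.

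TXNIP was the protein-coding gene with the highest ratio. It encodes a thioredoxin-binding protein that restrains glucose uptake. TXNIP (chr1:145992435-145996579) had 23.3 with CGI-1746, 12.4 with LU-102, 20.9 in the combination, 4.89 with bortezomib and 15.8 in mock. Both libraries that received CGI-1746 lay above mock, LU-102 and bortezomib lay below it, and the level with CGI-1746 was 1.87 times that with LU-102 (1.67 to 2.11). TXNIP belongs, with DDIT4, to a list of 18 genes that respond to FOXO factors or mTORC1, of which 6 were compared. These 6 lay above the all-gene median, with a median ratio of 0.32 and 2 past 0.322. CCNG2 at 0.319 and KLF6 at 0.316 lay just short of it. With a pseudocount of 5 in place of 1 the median of this list was 0.19. CCNG2, an unconventional cyclin, had a level of only 1.42 with CGI-1746 and 0.943 with LU-102.

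Among targets of NRF2, the oxidative stress factor, HMOX1 stood alone. HMOX1, the inducible heme oxygenase, had 9.30 with CGI-1746, 5.33 with LU-102, 13.5 in the combination, 7.80 with bortezomib and 4.44 in mock. Its level with CGI-1746 was 1.75 times that with LU-102 (1.44 to 2.12), a log2 ratio of 0.70. LU-102 was nearer to mock than CGI-1746 was, and the combination was highest, the order that HSPA1A and HSPA1B also had. In each of these genes LU-102 still lay above mock, for HSPA1B at 79.7 against 62.2. Of 25 NRF2 targets 16 were compared, and 1 passed 0.322, the median was 0.08, and 11 lay above the all-gene median, or 9 with the adjustment. Ferritin heavy chain gene FTH1 was at 0.18 and the quinone reductase gene NQO1 at 0.13.

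Metal response genes were split. These genes encode metallothioneins, which bind zinc and copper, and a zinc exporter. MT1X had 59.8 with CGI-1746, 48.2 with LU-102, 81.6 in the combination, 22.0 with bortezomib and 41.1 in mock, and MT1E was at 196 with CGI-1746 and 161 with LU-102. MT2A, at 168 with CGI-1746 and 179 with LU-102, did not share that order, and its log2 ratio of -0.09 was 0.02 with the adjustment. MT1F was lower with CGI-1746, at 3.20 against 5.08 with LU-102, with an interval that held 1 (0.384 to 1.01). Of 11 genes on the list 6 were compared. Of these 4 lay above the all-gene median and 1, MT1F, was past 0.322 on the low side. For the combination against mock, libraries that the ratio did not use, the median of the same 6 genes was 0.65.

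CYP1B1 was the protein-coding gene with the lowest ratio. It encodes a cytochrome P450 enzyme induced by the aryl hydrocarbon receptor, AHR. CYP1B1 (chr2:38067509-38076151) had 4.76 with CGI-1746, 8.64 with LU-102, 4.39 in the combination, 9.31 with bortezomib and 10.7 in mock. Both libraries that received CGI-1746 lay below the other 3, and the level with CGI-1746 was 0.551 of that with LU-102 (0.456 to 0.664). The other AHR targets measured were near 0, with TIPARP, an AHR-induced ADP-ribosyltransferase, at -0.07, and AHR itself at -0.02. Of the 14 genes of this list 5 were compared. Of these 5, 1 lay above the all-gene median, NQO1, and 1 passed 0.322, CYP1B1 on the low side.

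**Figure D3:**
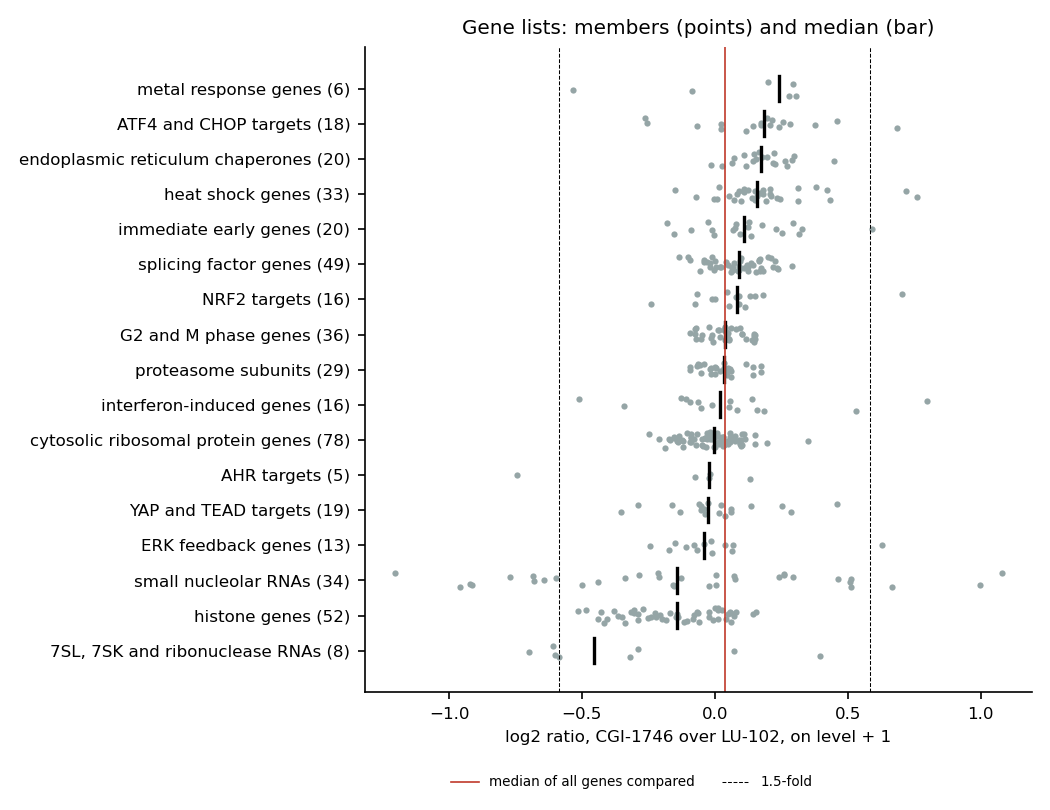
Log2 ratio of CGI-1746 over LU-102 for the members of 17 gene lists (points; number of genes in parentheses), with the list median (black bar), the median of all genes compared (red line, 0.04) and 1.5-fold (dashed). Medians run from 0.24 for metal response genes to -0.45 for the 7SL, 7SK and ribonuclease RNAs, and most members of every list of mRNAs lie inside the dashed lines.

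Genes fed back by ERK signalling were close to even, except for DUSP5. DUSP5, a nuclear phosphatase of ERK, had 12 with CGI-1746, 7.40 with LU-102, 11.3 in the combination, 3.07 with bortezomib and 7.86 in mock. Its level with CGI-1746 was 1.62 times that with LU-102 (1.41 to 1.87), and both libraries that received CGI-1746 lay above mock. The other ERK feedback genes ran from -0.24 for ETV4, a transcription factor of the ETS family, to 0.07 for IER3, among them DUSP6, a cytoplasmic ERK phosphatase, at -0.04 and SPRY4, an inhibitor of receptor signalling, at 0.06. Of 19 genes on the list 13 were compared. Of these 4 lay above the all-gene median of 0.04, and the list median was -0.04.

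Immediate early genes, which respond to growth factors and stress within minutes to hours, had a median of 0.11 over 20 of 30 genes, 14 of them above the all-gene median. KLF10 and FOSB passed 0.322. KLF10, a TGF-beta-induced transcription factor, had 6.53 with CGI-1746, 4.0 with LU-102, 5.59 in the combination, 1.39 with bortezomib and 5.61 in mock. For KLF10 LU-102 lay below mock by more than CGI-1746 lay above it, and the combination matched mock. BHLHE40, a transcriptional repressor of the circadian system, also had mock between the single agents, with 8.41 with CGI-1746, 5.63 with LU-102, 7.56 in the combination and 7.06 in mock. FOSB was low, at 1.15 with CGI-1746 and 0.709 with LU-102.

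Interferon-induced genes had a median near that of all genes and held members at both ends. IFIT2, an antiviral RNA-binding protein, had 6.68 with CGI-1746, 3.42 with LU-102, 6.45 in the combination, 0.417 with bortezomib and 3.67 in mock, and the level with CGI-1746 was 1.95 times that with LU-102 (1.64 to 2.32). IFIT3, its partner, had 5.01 with CGI-1746, 3.16 with LU-102, 4.63 in the combination, 0.626 with bortezomib and 3.53 in mock. For both genes the libraries with CGI-1746 lay above mock and LU-102 lay slightly below it. IFITM1 and IFITM2, membrane proteins that block viral entry, lay on the other side at -0.51 and -0.34, both with counting intervals that held 1. Of 38 genes on the list 16 were compared, and their median was 0.02, with 2 past 0.322 on the high side and 2 on the low side, and the ubiquitin-like modifier ISG15 was at -0.11.

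The window before IFIT3 is printed for its copies of the letters that mark an interferon-stimulated response element, searched as GAAANNGAAA on both strands. It is 1 of 2 RefSeq windows of the gene on GRCh38.p14, picked by number of matches, and the capitals are matches on the opposite strand.
IFIT3, chr10:89327747-89327996, plus strand: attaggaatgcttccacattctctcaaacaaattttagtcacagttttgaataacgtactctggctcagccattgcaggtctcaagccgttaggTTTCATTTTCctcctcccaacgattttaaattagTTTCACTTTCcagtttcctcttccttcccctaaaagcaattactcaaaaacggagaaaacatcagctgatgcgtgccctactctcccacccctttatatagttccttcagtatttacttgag

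The 2 matches begin 156 and 122 bases before the start. Of 12 interferon-induced genes with a listed window 7 (58.3%) held this motif, against 3.71% of 27305 genes. The list was drawn up as interferon-induced genes, so this excess does not bear on the ratio. IFITM1 and IFITM3 are among the 7, as are ISG15 and IFIT5, so genes on both sides of 0 carry it.

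IL11, NOG, AJUBA and TAGLN were other mRNAs lower with CGI-1746. IL11, a cytokine of the IL-6 family, had 13.3 with CGI-1746, 18.7 with LU-102, 13.3 in the combination, 16.4 with bortezomib and 18.5 in mock. As for CYP1B1, both libraries that received CGI-1746 were the lowest for IL11, and its log2 ratio was -0.46 (ratio 0.713, interval 0.609 to 0.836). NOG, an extracellular inhibitor of BMP signalling, had 4.74 with CGI-1746, 6.79 with LU-102, 5.17 in the combination, 12.4 with bortezomib and 7.08 in mock, again lowest where CGI-1746 was given. AJUBA, a LIM-domain adaptor and YAP target, was at -0.35, and TAGLN, a smooth muscle actin-binding protein, at -0.41. TAGLN was the only one of 28 actin and tubulin genes past 0.322, and their median was 0.04, as for all genes. YAP and TEAD targets as a list had a median of -0.03 over 19 of its 28 genes. GADD45A at 0.46 was its 1 member past 0.322 on the high side and AJUBA its 1 member on the low side. NF-kB targets, at a median of 0.03 over 16 of 31 genes, held CSF2 at 0.46 and IL11 as the only members past 0.322.

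None of the 29 proteasome subunit genes found in the table passed 0.322 in either direction. Few genes did, 1.72% of all genes compared on the high side and 1.76% on the low side. The list held only subunit genes that the table contains, so it does not cover every subunit. PSMB7, the gene of the trypsin-like site, is not among the 29. The median of the 29 was 0.03, close to the 0.04 of all genes, and they ranged from -0.10 for PSMB5 to 0.17 for PSMB2. PSMB5, which carries the chymotrypsin-like site, had 6.4 with CGI-1746 and 6.91 with LU-102, and PSMB6, which carries the caspase-like site, had 13.8 with CGI-1746 and 13.6 with LU-102. Subunits of the regulatory particle were as even, with PSMD2 at 41.6 with CGI-1746 and 40.6 with LU-102. Proteasome assembly genes had a median of 0.09 over 18 of 25 genes, with none past 0.322. No G2 and M phase gene passed 0.322 over 36 compared, and no S phase gene over 23, each list with a median of 0.04. None of the 14 apoptosis regulators, 7 p53 targets or 16 mesenchymal genes compared passed it. With shares this small over all genes, having none past 0.322 does not set these lists apart.

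Ribosomal protein genes of the cytosol had a median of -0.003 over 78 genes, with RPL22L1, at 3.56 with CGI-1746 and 2.58 with LU-102, the only one past 0.322. Splicing factor genes leaned to CGI-1746 with a median of 0.09 over 49 genes, 34 of them above the all-gene median. The highest member was at 0.29. SRSF6 at 0.24 and TRA2B at 0.23, which encode SR-family splicing regulators, are named as examples. With the adjustment the splicing median was 0.06 and 31 lay above the all-gene median. Nuclear long RNAs had a median of 0.03, and their 1 member past 0.322, the paraspeckle RNA NEAT1, had 22.9 with CGI-1746, 17.8 with LU-102, 24.7 in the combination, 19.4 with bortezomib and 14.8 in mock.

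Histone genes were lower with CGI-1746, by less on the adjusted ratio. Of 52 genes 43 lay below the all-gene median, 10 were past 0.322 on the low side and none on the high side, and the median was -0.14. The 46 that had a GC value had a median GC content of 57.4%, against 51.7% over all genes, and their adjusted median was -0.02 with 16 above the all-gene median. By type, the median was -0.26 for 16 H2A genes, -0.04 for 12 H2B genes, -0.22 for 11 H3 genes, about 0 for 9 H4 genes, and -0.09 for 4 H1 genes. H3 genes kept a median of -0.22 with the adjustment over 8 genes, whereas H2A genes had -0.10 over 14. H4C12 had 85.5 with CGI-1746, 120 with LU-102, 100 in the combination, 4.93 with bortezomib and 87.2 in mock, and H3C12 had 16.7 with CGI-1746, 24.4 with LU-102, 24.1 in the combination, 1.24 with bortezomib and 17.8 in mock. In both, mock was nearer to CGI-1746, and LU-102 was the high library. H2AC18 and H2AC19 have the same level in every library, as have H3C14 with H3C15 and H4C14 with H4C15, so the genes of these pairs are not independent.

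The most abundant short RNAs were lower with CGI-1746 than with LU-102, and mock lay nearer to CGI-1746. RPPH1 (chr14:20343071-20343411), the RNA of ribonuclease P, which trims tRNA precursors, had 7265 with CGI-1746, 11783 with LU-102, 8618 in the combination, 1328 with bortezomib and 7110 in mock. Its ratio was 0.617 on 42109 reads with CGI-1746 and 68630 with LU-102, so the counting interval was narrow (0.609 to 0.624). RN7SL2, a 7SL RNA of the signal recognition particle, had 17302 with CGI-1746, 26281 with LU-102, 24837 in the combination, 36441 with bortezomib and 16597 in mock. RN7SL1 and RN7SL3 had nearly the same log2 ratios, -0.59 and -0.61 beside -0.60 for RN7SL2. The 3 are 96.3% to 98.7% identical, so how their reads were divided is uncertain and they are not independent of each other. RMRP, the RNA of ribonuclease MRP, was at -0.32, and 7SK, the RNA that restrains the elongation factor P-TEFb, at -0.29 for RN7SK. Of the 14 RNAs on this list 8 were compared. Over these 8 the median was -0.45, with 4 past 1.5-fold lower, and the Y RNA gene RNY1, on 15 reads with CGI-1746 and 11 with LU-102, was the 1 past 0.322 on the high side.

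With the adjustment the median of these 8 RNAs was -0.24 and RPPH1 was at -0.47, RN7SL2 at -0.38. Their median GC content was 62.8%, against 51.7% for all genes. All 5 of the abundant RNAs are transcribed by RNA polymerase III.

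Small nucleolar RNAs were scattered to both sides. These RNAs guide 2′-O-methylation or pseudouridylation of ribosomal RNA, and most lie inside introns of other genes, where reads of the host transcript cannot be told apart from theirs. Of 34 compared, 7 were past 0.322 on the high side and 12 on the low side, with a median of -0.14. With the adjustment, available for 30 of them, the median was -0.0036. Most rest on a handful of reads, and the 95% counting interval of the ratio held 1 in 29 of the 34. SNORD3A, a U3 RNA needed for early ribosomal RNA cleavage, was lower on 92.5 reads with CGI-1746 and 180 with LU-102, beside 150.5 in the combination, 3504 with bortezomib and 82.0 in mock. Fractions of a read may come from reads that fit more than 1 place, which was not tested. Its ratio was 0.518 (0.40 to 0.671), and SNORD3D, 98.6% identical over their shared 218 bases, had 0.643 (0.438 to 0.936).

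SNORA38 was the small nucleolar RNA higher with CGI-1746 whose interval excluded 1. It had 34 reads with CGI-1746, 16 with LU-102, 26 in the combination, 144 with bortezomib and 15 in mock, so the level with CGI-1746 was 2.14 times that with LU-102 (1.15 to 4.14). Its sequence is printed as an H/ACA RNA with the ACA box, 3 bases before the end, in capitals, from GENCODE 29 on GRCh38 and not from RefSeq.
SNORA38, chr6:31623079-31623210, plus strand: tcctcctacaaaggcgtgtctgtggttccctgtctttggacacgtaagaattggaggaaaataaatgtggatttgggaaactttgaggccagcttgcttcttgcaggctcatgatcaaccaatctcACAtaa

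Small Cajal body RNAs, which guide modification of spliceosomal RNAs, included the gene with the highest ratio of all. SCARNA1 (chr1:27834401-27834566) had 12 reads with CGI-1746, 3 with LU-102, 1 in the combination, 19 with bortezomib and 5 in mock, a ratio of 4.02 with a wide interval (1.08 to 22.2). The combination was the lowest of its 5 libraries, although it also received CGI-1746. SCARNA7 rested on more, with 202 reads with CGI-1746, 119 with LU-102, 211 in the combination, 675 with bortezomib and 165 in mock, and a ratio of 1.71 (1.35 to 2.16). SCARNA6 was opposite, with 47 reads with CGI-1746 and 77 with LU-102, a ratio of 0.613 (0.417 to 0.893). Over 13 of these RNAs the interval excluded 1 on the high side in 4 and on the low side in 3. The 3 other genes past 2-fold had intervals that held 1, BCYRN1 on 8 reads with CGI-1746 and 2 with LU-102, SNORA79B on 7 and 2, and SNORA71C on 3 and 10. Over all 62 short RNAs the interval excluded 1 on the high side in 5 and on the low side in 13, and held 1 in 44.

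**Figure D4:**
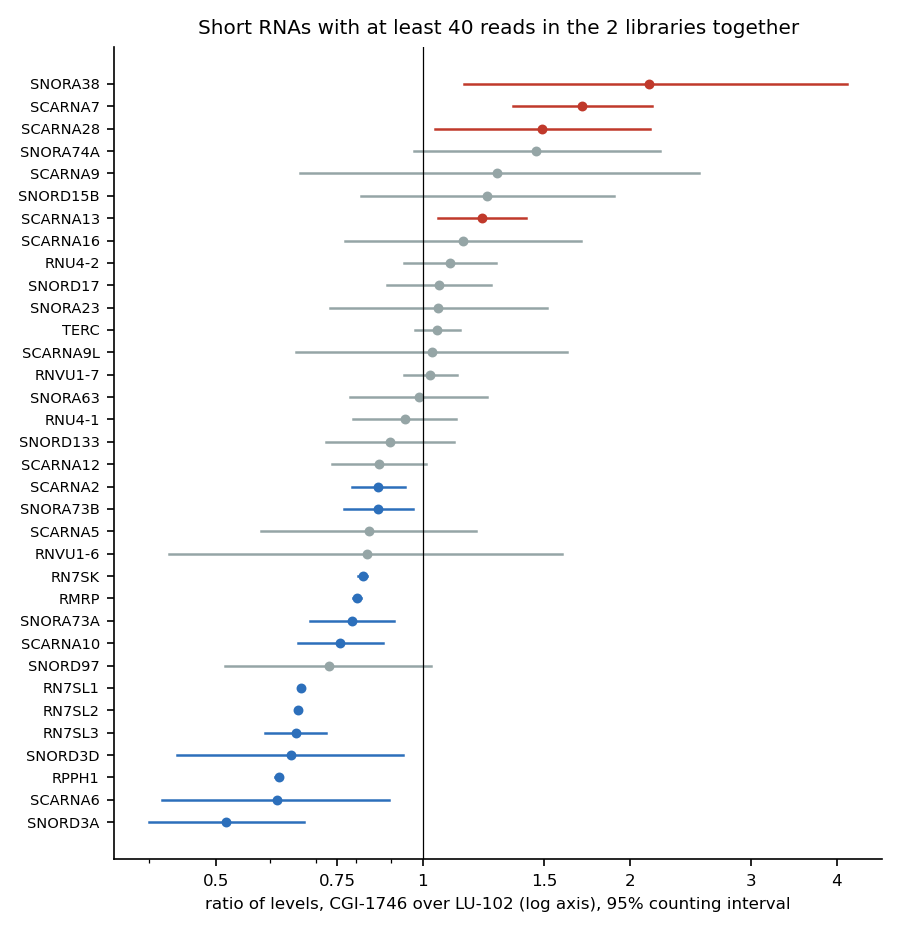
Ratio of the level with CGI-1746 to that with LU-102 (log axis) for short RNAs with at least 40 reads in the 2 libraries together, with exact 95% intervals for counting error only. Red marks intervals above 1, led by SNORA38 at 2.14 and SCARNA7 at 1.71, blue marks intervals below 1, from SCARNA2 down to SNORD3A at 0.518, and grey marks intervals that hold 1.

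The combination and mock libraries entered neither side of the ratio. The combination received both agents, so it cannot show again which single agent gave the higher level, and its values are given as a description. Over all 4194 genes the ratio of CGI-1746 to LU-102 and that of the combination to mock were weakly and negatively related, with Pearson's r of -0.10 and Spearman's rho of -0.22, as a description across genes. At the extremes the picture was different. With CGI-1746, 11 genes were past 1.5-fold higher at a level of at least 5 in at least 1 of the pair. Of these, 10 were past 0.322 on the high side in the combination against mock, KLF10 being the exception. Over all genes compared, at any level, 5.41% were, and the share at levels of at least 5 was not worked out. Of the 9 such genes past 1.5-fold lower with CGI-1746, 6 were also past 0.322 on the high side in the combination against mock, and 1, CYP1B1, was past it on the low side (1.38% of all genes). Of the 6, RN7SL1, RN7SL2 and RN7SL3 are near-identical, as are SNORD3A and SNORD3D, so the 6 are not independent genes. Neither are HSPA1A and HSPA1B among the 10. Counting genes at lower levels too, 11 of 16 higher genes and 8 of 18 lower genes were past 0.322 on the high side in the combination against mock.

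At levels of at least 5, mock sat nearer to the lower of the single agents in most of these genes. Of the 11 higher genes at a level of at least 5, mock was nearer to LU-102 in 9, and of the 9 lower genes it was nearer to CGI-1746 in 8. CYP1B1 was the exception among the lower genes, with mock nearer to LU-102. With lower levels included, mock was nearer to LU-102 in 13 of 16 higher genes and nearer to CGI-1746 in 10 of 18 lower genes. Past 0.322 at any level, it was nearer to LU-102 in 38 of 72 higher genes and nearer to CGI-1746 in 48 of 74 lower genes. The share over all genes compared was not worked out, so these counts have no background beside them. Near-identical genes are also counted separately among the 11 and the 9. The heat shock list had a median of 0.18 for the combination against mock beside 0.03 for all genes, with 29 of 33 above that all-gene median. Histone genes, on the low side of CGI-1746 against LU-102, had a median of 0.19 for the combination against mock. Chaperones of the endoplasmic reticulum had 0.08, and targets of ATF4 and CHOP 0.06.

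**Figure D5:**
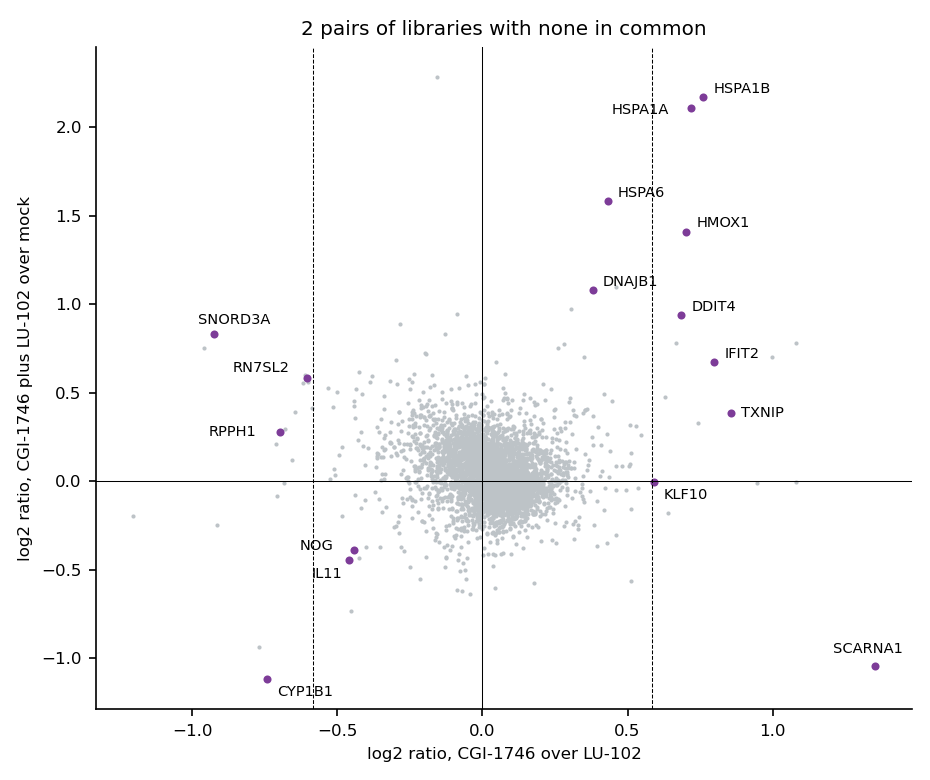
Log2 ratio of CGI-1746 over LU-102 (horizontal axis) against log2 ratio of the combination over mock (vertical axis) for 4194 genes, from 2 pairs of libraries that share none. Dashed lines mark 1.5-fold; HSPA1B, HSPA1A and HMOX1 lie at the upper right, SNORD3A and RN7SL2 at the upper left, and CYP1B1 at the lower left.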

How the data were processed

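The authors sequenced total RNA of 5 MDA-MB-231 libraries, 1 per condition. The submitters' processing notes name Partek and hg38. The sources used here do not give the aligner, annotation, strand or normalization. The deposited signal per gene is called a least squares mean per the file headers, its scale is not stated, and each library's column is repeated in several of the authors' 6 comparisons; 7 repeated columns were identical to those used. The deposited p-value, FDR and ratio columns of the authors, and a deposited score for total counts that equals the sum of the 5 levels, were not used for any result. None of the 6 comparisons sets CGI-1746 against LU-102.

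Levels were compared as log2(level + 1) with a pseudocount of 1. Reads of short single-exon RNAs were recovered from level times length, which were multiples of 0.5 of the value of 1 read, 58.8 with CGI-1746 and 58.5 with LU-102, within 0.1 for 28 of 29 and 29 of 30 low genes. Reads of mRNAs were approximated from GENCODE 29 transcript lengths. Intervals are exact Clopper-Pearson intervals at 95% for the split of the reads between the libraries. GC content and length were available for 4152 of 4202 genes (98.81%), and the adjusted ratio is the residual, plus the median, of a Huber regression. Coordinates and gene types are from RefSeq (GRCh38.p14), matched for 4186 genes. Genes named are all past 2-fold, the 15 highest and 15 lowest with a level of at least 5, up to 4 of each list past 0.322 on the log2 scale, and any member of 5 lists (heat shock, metal response, AHR, ERK feedback and proteasome subunits). A few further list members are named as examples at their values. The members and the 40 gene lists were chosen with earlier results of these data known. Scripts were tested on simulated data. Python 3.11.15, numpy 2.4.6, pandas 2.3.3, scipy 1.17.1, statsmodels 0.14.6, biopython 1.88 and matplotlib 3.10.9 were used.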

Additional observations from a re-analysis of the deposited data

How the results depend on the processing

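No paired analysis was possible because each condition has 1 library, and for the same reason no library could be left out. The all-gene median stayed between 0.0169 and 0.0499 under the alternatives that gave one. The counts past a fold depended on the treatment of low levels. With a pseudocount of 0.1 the counts were 5 higher and 8 lower at 2-fold, and 35 higher and 31 lower at 1.5-fold. With a pseudocount of 5 they were 0 and 0 at 2-fold, and 6 and 5 at 1.5-fold. Restricted to levels of at least 5 they were 0 and 0 at 2-fold, with 9 lower at 1.5-fold. Among protein-coding genes alone they were 0 and 0 at 2-fold, and 9 higher and 2 lower at 1.5-fold. The adjustment for GC content, transcript length and level gave 5 higher at 2-fold and 8 lower at 1.5-fold. Counts of 0 here are counts past a fold, with no test behind them.

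Of 267 alternative values for 39 list medians 10 moved, and of 888 for 137 named genes 11 moved, with none reversed among those past a fold. The adjusted histone median was -0.02 over 46 genes, beside -0.14 unadjusted over 52. For small nucleolar RNAs it was -0.0036 over 30, beside -0.14 unadjusted over 34. Part of each shift may come from the genes without an adjusted value, and the cause was not tested. Median-of-ratios scaling changed all ratios by a factor of 1.02, fitted on 1244 genes, and kept 15 of the 16 higher and all 18 lower genes at 1.5-fold. The 4 genes past 2-fold rest on 2 to 12 reads a library, and without replicates none of the intervals covers variation between cultures. The heat shock list without HSPA1A, HSPA1B and HSPA6 was added after seeing the data.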
